A study of Mus musculus with 4 samples.

Results

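Gene expression was compared between macrophages of mammary tumors and macrophages of remodeling mammary glands, both from mice with the Ets2-expressing label. The comparison rests on 2 of the 4 arrays of the study, 1 per side, and its value for each gene is the log2 level on the tumor array minus that on the remodeling array. A gene was kept where the brighter of both arrays lay at or above the median of that array, which held for 7253 of 12393 genes measured (58.5%). Near that limit, Aar2 (5.44 and 6.22 on the remodeling and tumor arrays) and Trmt10b (6.17 and 5.96) were just kept, and Ddx51 (5.16 and 6.21) and Sytl1 (4.87 and 6.21) were just left out.

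Macrophages are tissue phagocytes that clear dying cells, present antigen, and release proteases, growth factors and chemokines. In the mammary gland they take part in the branching and regression of the ducts, and in the PyMT model, where the polyoma middle T oncogene drives mammary tumors, they are known for supporting vessel growth and the spread of tumor cells. Ets2 is a transcription factor of the ETS family that acts downstream of growth factor signalling in macrophages.

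The tumor samples came from early-stage PyMT mammary tumors and the remodeling samples from tumor-free glands of female mice. In each setting 1 RNA sample came from mice expressing Ets2 and 1 from mice with both copies of Ets2 deleted in macrophages. The remodeling control is labelled wild type. The title of the tumor control also says wild type, but its source is described as having 1 copy of Ets2, so tumor and gene dose cannot be told apart on these arrays. Macrophages of all mice in the study carried the fluorescent protein YFP, by which the cells were flow-sorted. The driver of YFP and of the deletion, the strain, the age and number of mice, and the kind of remodeling are not given in the sources used here. About 10 ng of RNA per sample was amplified as cDNA before hybridization.

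With 1 array a side there was no replicate check and no test, and no p-value is given. Precision was limited by the number of arrays. The error at hand was technical: among 2480 genes represented by 2 or more bright probe sets, the difference had a median SD of 0.25 log2 between probe sets of the same gene, a pooled SD of 0.41 and a 95th percentile of 0.81. A gene was called at a 2-fold difference, a log2 difference of 1. That limit is not an error bound, since the SD is between probe sets on the same RNA samples. It leaves out variation between mice, sorts and amplifications. The second pair of arrays, Ets2-deficient tumor and remodeling macrophages, shares no array with the Ets2-expressing pair and is given beside it. Its mice differ by genotype, so it is not a replicate.

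Array medians were 6.17 (remodeling) and 6.22 (tumor) on the Ets2-expressing arrays and 5.98 and 6.30 on the Ets2-deficient arrays. Ets2 itself measured 13.24 and 12.77 on the Ets2-expressing remodeling and tumor arrays and 12.97 and 12.67 on the Ets2-deficient ones. Its probe set may lie outside the deleted exons, which the labels do not give, and checks nothing. Of 9 macrophage markers, 8 lay at or above the array median on every array, and Itgam (CD11b) lay below it on all 4. The colony-stimulating factor receptor gene Csf1r measured 13.09 in remodeling and 13.17 in tumor macrophages, and the surface receptor gene Adgre1 11.60 and 11.40. Macrophage markers were thus bright, but 6 of 6 fibroblast markers were also bright on all arrays, with summed levels of 66.7, 59.4, 55.3 and 58.8 (Ets2-expressing remodeling and tumor, then Ets2-deficient remodeling and tumor). Of 6 epithelial markers, 1, 6, 1 and 6 were bright in the same order, with sums of 33.9, 51.6, 31.7 and 55.3. The excess of 3' over 5' signal, a measure of RNA quality, was higher on the tumor than the remodeling array for Actb (3.30 against 2.72) and Gapdh (2.45 against 1.61) and lower for Tfrc (5.03 against 5.75). In sorted samples such as these, fewer cells of a type and less RNA per cell cannot be told apart.

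On the tumor array 448 genes were higher by 2-fold or more (6.18% of those kept) and 377 were lower by as much (5.2%). Of these, 109 higher and 63 lower genes reached 4-fold, and 40 higher and 4 lower genes reached 8-fold. At the 2-fold limit itself stood Apoc2 and Zbtb17 (1.0 each) just inside and Hus1 and Scand1 just outside among higher genes, and Zfp275 (-1.01) inside and Klf3 (-1.0) just outside among lower ones. For 171 called genes, 2 or more probe sets were bright. In 154 of these the bright sets had the same sign, and in 106 each of them passed 2-fold.

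Higher genes were largely higher with either Ets2 label, and lower genes were less often lower with both. Over the 7253 genes kept, 4801 (66.2%) differed in the same direction in both pairs. In the Ets2-deficient pair, 7.61% of 7203 genes kept were called higher and 1.61% lower. Of the 448 higher genes, 403 (90.0%) were also above 0 there, 202 (45.1%) were also called higher and 1 was called lower. Of the 377 lower genes, 214 (56.8%) were also below 0 there and 43 (11.4%) were also called lower, while 38 (10.1%) were called higher. The shares called the same way, 45.1% and 11.4%, both lay above the 7.61% and 1.61% of all genes kept in that pair. Both tumor arrays lay above both remodeling arrays for 399 of the 448 higher genes, against 30.9% of the genes kept, and below them for 194 of the 377 lower genes, against 21.9%. The contrast that chose these genes contributes 2 of the 4 arrays to that ordering.

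The lower genes mostly shared a high level on the Ets2-expressing remodeling array. Their median level was 8.56 there, 6.97 on the Ets2-expressing tumor array, and 7.31 and 7.22 on the Ets2-deficient remodeling and tumor arrays. That array was the highest of the 4 for 339 of 377 genes (89.9%), and at least 2-fold above each of the other three for 173 (45.9%). The higher genes had median levels of 5.96 and 7.71 on the Ets2-expressing and 6.37 and 7.75 on the Ets2-deficient arrays, so that both remodeling arrays lay below both tumor arrays. The Ets2-expressing remodeling array stood at least 2-fold below each of the other three for 32 of 448. Since the difference was measured from that array, its rank is in part fixed by the choice of genes. Across the 7253 genes kept, the differences of both pairs had a Pearson correlation of 0.54 and a Spearman correlation of 0.45. Genes are not independent replicates, and whether the 4 arrays were normalized together is not given in the sources used here.

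**Figure D1:**
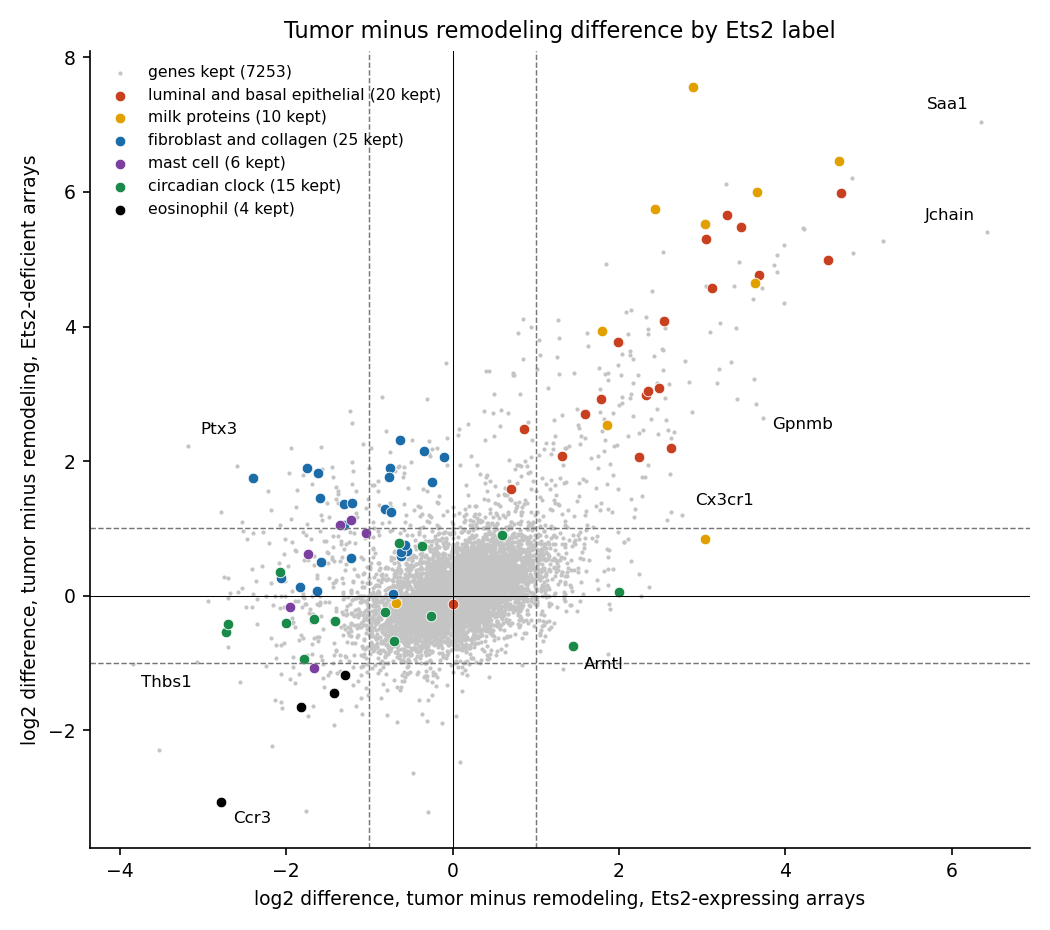
Each point is 1 of 7253 genes, with its log2 difference (tumor minus remodeling) in the Ets2-expressing pair on the horizontal axis and in the Ets2-deficient pair on the vertical axis; dashed lines mark 2-fold and colors mark 6 gene lists. Epithelial and milk protein genes lie to the upper right, except Jup (0.00 and -0.13) and Xdh (-0.68 and -0.11), eosinophil genes to the lower left, and fibroblast genes lie left of 0 on the horizontal and mostly above 0 on the vertical axis, with a median of -0.76 in the Ets2-expressing and 1.27 in the Ets2-deficient pair.

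The genes with the largest excess in tumor macrophages encode antibody chains, acute-phase proteins and products of mammary epithelium. Jchain, the joining chain of polymeric antibodies, was highest by the main probe set of each gene. It measured 4.31 on the remodeling and 10.73 on the tumor array, and 5.35 and 10.76 on the Ets2-deficient arrays (differences of 6.42 and 5.40). Igha, the constant region of IgA, measured 6.70 and 11.87, and 6.82 and 12.08 on the Ets2-deficient arrays (5.18 and 5.27). Other bright probe sets of Igha differed by 7.31 and 7.44, more than Jchain, and by 7.45 and 7.42 in the Ets2-deficient pair. For both Jchain and Igha the remodeling arrays lay far below the tumor arrays. Both were chosen by the size of their differences, so that separation is in part fixed by the choice. Saa1 and Saa2 encode serum amyloid A, an acute-phase apolipoprotein. Saa1 measured 4.68 and 11.04, and 4.63 and 11.67 on the Ets2-deficient arrays (6.35 and 7.04). Saa2 measured 5.41 and 10.22, and 5.38 and 10.47 (4.81 and 5.10). These near-identical copies may share signal, and their levels are uncertain as separate values. The siderophore-binding protein gene Lcn2 differed by 4.51 (7.51 to 12.02) and the chitinase-like gene Chil1 by 3.98 (6.02 to 10.00).

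Other genes among the 15 highest were the membrane mucin Muc15 (4.80, from 5.41 to 10.21), the simple-epithelium keratin Krt8 (4.67, from 5.83 to 10.50) and the milk protein kappa-casein, Csn3 (4.65, from 7.77 to 12.42). They also held the collagen gene Col9a1 (4.23), Plet1 (4.21), the ion transport regulator Fxyd3 (3.99), the potassium channel Kcnk1 (3.90), Plekhb1 (3.90) and the secretoglobin Scgb2b27 (3.86). Each of these was also called higher in the Ets2-deficient pair, where the differences ran from 4.81 for Plekhb1 to 6.46 for Csn3. The 10 genes highest in both pairs together were Jchain, Saa1, Igha, Saa2, Muc15, Krt8, Csn3, Lcn2, Col9a1 and Plet1.

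Epithelial genes were higher in tumor macrophages. Of 30 genes of luminal and basal epithelium measured, 20 were kept, 17 were called higher and 0 lower, and each of the 17 was also called higher in the Ets2-deficient pair. The median over the 30 was 1.69, against 0.07 over all genes measured, and 2.36 in the Ets2-deficient pair. Over the 30, kept or not, 28 differences lay above 0 and 2 below. After Krt8 and Lcn2 came Elf5, the ETS factor of milk-secreting cells, which measured 4.18 and 7.87, and 4.31 and 9.09 on the Ets2-deficient arrays (3.68 and 4.77). The epithelial splicing regulator Esrp1 differed by 3.47 and the transcription factor Sox10 by 3.30. The surface marker Epcam measured 5.84 and 8.38, and 4.75 and 8.83 on the Ets2-deficient arrays (2.54 and 4.08). The adhesion gene Cdh1 measured 5.50 and 7.98, and 5.83 and 8.91 (2.48 and 3.08). For these genes both remodeling arrays lay below both tumor arrays. All of them but Lcn2 lay below the median of the Ets2-expressing remodeling array (6.17). They were kept through the tumor array alone, which favors a call of higher.

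Milk protein genes were higher too. Of 14 measured, 10 were kept, with 9 called higher and 0 lower, and the median was 2.14 (4.31 in the Ets2-deficient pair). Over the 14, kept or not, 12 differences lay above 0 and 2 below. Besides Csn3, the iron-binding lactoferrin gene Ltf differed by 3.66, alpha-lactalbumin (Lalba) by 3.63, whey acidic protein (Wap) by 3.04 and the secreted mucin Glycam1 by 3.03. Beta-casein, Csn2, measured 4.64 and 7.54, and 3.68 and 11.24 on the Ets2-deficient arrays (2.89 and 7.56). It was higher in tumor with either label, and the tumor arrays themselves lay far apart. Csn2, Ltf, Lalba, Wap and Glycam1 lay below the median of the Ets2-expressing remodeling array (3.62 to 5.87 against 6.17). They were kept through the tumor array alone, which favors a call of higher. The part of epithelial RNA in the other differences was not tested.

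Lymphocyte genes were higher in part. Of 15 B and plasma cell genes, 12 were kept, 5 were called higher and 0 lower, and 15 of 15 differences lay above 0 (median 0.90, and 0.24 in the Ets2-deficient pair). Next to Jchain and Igha stood the B cell receptor subunit Cd79a (2.06), the low-affinity IgE receptor Fcer2a (1.87) and the B cell coactivator Pou2af1 (1.73). In the Ets2-deficient pair these last genes differed by 0.80, 0.17 and 0.24. Ighm, the constant region of IgM, measured 9.10 and 10.04, and Ms4a1, the CD20 gene, 7.60 and 8.58. Neither passed 2-fold on its main probe set, but a second bright set of Ms4a1 differed by 1.18. In the Ets2-deficient pair Ighm differed by 0.22 and Ms4a1 by -0.45, with -0.745 on the second Ms4a1 set. Of 4 B and plasma cell markers measured, 2 were bright on the Ets2-expressing remodeling array and 4 on its tumor counterpart. Among 19 T and NK cell genes, 13 were kept and 4 were higher: the adaptor Lat (1.68), the T cell receptor subunit Cd3g (1.33), Cd5 (1.17) and Cd4 (1.08). Cd4 differed by -0.45 in the Ets2-deficient pair. Cd3e measured 10.72 and 11.11, so T cell RNA was bright on both arrays.

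Most macrophage identity genes differed little. Of 20 measured, 19 were kept and 1 passed 2-fold, with a median of 0.05. That gene was the fractalkine receptor Cx3cr1, which measured 6.77 in remodeling and 9.53 in tumor macrophages, and 8.99 and 10.19 on the Ets2-deficient arrays (2.76 and 1.20). The Ets2-expressing remodeling array was low against the other three. Tissue-resident macrophage genes had 20 of 21 kept, 0 higher and 1 lower (median -0.15): the hyaluronan receptor Lyve1, at 11.94 and 10.62, which differed by -1.32 (-0.05 in the Ets2-deficient pair). The scavenger receptors Cd163 and Mrc1, which mark resident macrophages, measured 12.71 and 12.51, and 12.77 and 12.71.

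Genes of lipid-associated macrophages, a state described in tumors and fat tissue, had 16 of 17 kept, 4 higher and 0 lower (median 0.26). In the Ets2-deficient pair the median was 0.13, with 2 called higher and 2 lower. The lower ones were Cd36 (-0.31 and -1.26) and Fabp4 (-0.13 and -1.89). Gpnmb, a glycoprotein of phagocytes loaded with lipid, measured 7.78 and 11.43, and 8.13 and 10.98 on the Ets2-deficient arrays (3.64 and 2.85, or 12.5-fold and 7.19-fold). The integrin Itgax (CD11c) measured 8.94 and 10.88, and 9.44 and 11.24 (1.93 and 1.80). Both genes lay above the array median on all arrays, and both remodeling arrays lay below both tumor arrays. The lipid receptor Trem2 measured 8.35 and 9.64, and 8.13 and 8.66 (1.29 and 0.53), and the fatty acid-binding protein gene Fabp5 11.70 and 12.82, and 11.87 and 12.39 (1.12 and 0.53). A second bright probe set of Fabp5 differed by 1.8 and 1.7.

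Sterol-related genes pointed the same way in small numbers. Of 14 genes of cholesterol efflux and the LXR receptors, 13 were kept and 3 were higher, each with either Ets2 label: the lipogenic factor Srebf1 (1.66 and 2.05), Apoc1 (1.5 and 1.41) and Apoc2 (1.0 and 1.55). Among 16 genes of cholesterol synthesis and uptake, 11 were kept and 2 were higher, squalene synthase Fdft1 (1.35 and 1.10) and lanosterol synthase Lss (1.21 and 1.0). Lysosomal genes, with 23 of 24 kept, had 0 called and a median of 0.21.

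Members of several lists, Mmp12, Arg1, Slc7a2, Vsig4, Mfge8 and Egln3, were higher in tumors with either label and share no list of their own. The macrophage elastase Mmp12 measured 7.79 and 9.93, and 8.94 and 10.38 on the Ets2-deficient arrays (2.14 and 1.44). Arginase-1, Arg1, measured 4.42 and 6.88, and 4.86 and 7.63 (2.46 and 2.78). The arginine transporter Slc7a2 measured 4.09 and 7.52, and 4.09 and 7.02 (3.42 and 2.93), while its other probe sets were dim. In all 3 genes the tumor arrays lay above the remodeling arrays. Arg1, Slc7a2 and Egln3 lay below the median of the Ets2-expressing remodeling array (4.42, 4.09 and 5.63 against 6.17). They were kept through the tumor array alone, which favors a call of higher. Slc7a2 was near background on both remodeling arrays. The isoform Arg2 was lower, at 8.94 and 7.32 (-1.63, and 0.31 in the Ets2-deficient pair), as was the antizyme inhibitor Azin1 (-1.05). The complement receptor Vsig4 measured 6.94 and 8.71, and 6.47 and 9.20 (1.77 and 2.73). The bridging protein Mfge8, which tags dying cells for uptake and is also a milk fat globule protein, differed by 1.85 and 2.54. The oxygen sensor Egln3 differed by 1.92 and 2.72. It was the 1 higher gene of 21 kept among glycolysis and hypoxia genes (median 0.27), of which 3 were lower. These were Vegfa (-1.75 and -0.88), Adm (-1.38 and 1.38) and P4ha1 (-1.05 and -0.33).

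Antigen presentation genes differed slightly. Of 12 MHC class II presentation genes, 12 were kept, with a median of 0.51. The class II regulator H2-Oa (1.12) was higher and the costimulatory ligand Cd80 (-1.22) lower. Among 14 dendritic cell genes, 11 were kept, and the chemokine Ccl22 (1.18), the endocytic receptor Ly75 (1.10) and the transcription factor Batf3 (1.08) were higher, while Dpp4 (-1.07) was lower. Of 20 interferon response genes kept, Irf7 (1.23), Ifit2 (1.16) and Ifit3 (1.05) were higher and Oasl1 (-1.33) was lower. On the Ets2-deficient arrays Ifit2 and Ifit3 lay at -0.37 and -0.58. The peptide transporter Tap1 (1.08) was the 1 of 12 MHC class I genes kept past 2-fold.

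**Figure D2:**
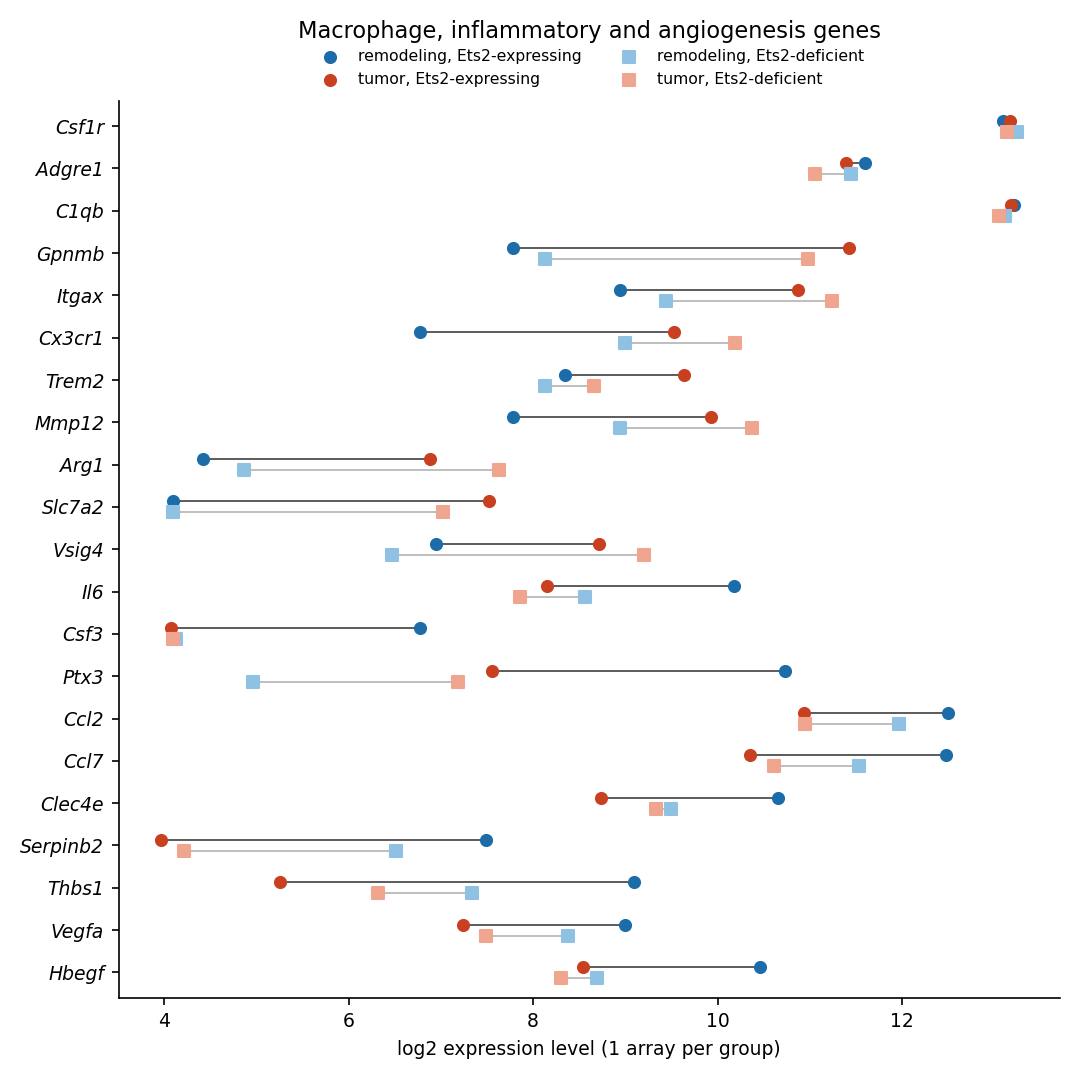
Log2 expression levels of 21 macrophage, inflammatory and angiogenesis genes on the 4 arrays; circles joined by a dark line are the Ets2-expressing pair, squares joined by a light line the Ets2-deficient pair, blue remodeling and red tumor. From Gpnmb (7.78 to 11.43) to Vsig4 the tumor symbols lie to the right in both pairs, and from Il6 (10.18 to 8.15) down they lie to the left in the Ets2-expressing pair.

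Some inflammatory mediators were lower in tumor macrophages. Of 21 cytokines and effectors, 15 were kept, 7 were lower, 1 (Lcn2) was higher and 7 did not pass 2-fold, among them Tnf (-0.76) and Il1b (-0.86), and the median was -0.76 (-0.03 in the Ets2-deficient pair). The long pentraxin Ptx3 measured 10.73 in remodeling and 7.55 in tumor macrophages, but 4.96 and 7.19 on the Ets2-deficient arrays (-3.18 and 2.22). The granulocyte growth factor Csf3 measured 6.77 and 4.07, and 4.13 and 4.10 (-2.70 and -0.03). It lay below the 25th percentile of each array except the Ets2-expressing remodeling array. The cytokine Il6 measured 10.18 and 8.15, and 8.56 and 7.86 (-2.02 and -0.70). Acod1, which makes itaconate, measured 9.03 and 7.23, and 6.66 and 8.45 (-1.80 and 1.79), and the hyaluronan-binding Tnfaip6 11.50 and 9.72, and 8.25 and 8.78 (-1.78 and 0.53). Interferon-beta, Ifnb1, was among the 15 lowest genes at 7.77 and 5.07 (-2.69 and -0.77). The C-type lectin receptor Clec4e measured 10.65 and 8.74, and 9.50 and 9.33 (-1.92 and -0.17), the 1 lower of 15 pattern receptors kept, against Tlr1 (1.20) higher. NF-kappa-B subunits and inhibitors had 13 of 14 kept, 0 called and a median of -0.38.

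Of 17 CC chemokines, which attract leukocytes, 14 were kept, with 5 lower, 1 (Ccl22) higher and the others not past 2-fold (median -0.31). Among those not past it, Ccl5 differed by 0.96, Ccl8 by 0.39 and Ccl12 by -0.06. Ccl7 measured 12.47 and 10.35, and 11.53 and 10.61 on the Ets2-deficient arrays (-2.13 and -0.92). Ccl2 measured 12.50 and 10.94, and 11.97 and 10.95 (-1.56 and -1.02). For both, the tumor arrays lay below the remodeling arrays. The eosinophil attractant Ccl11 (-1.54), Ccl3 (-1.40) and Ccl4 (-1.14) were also lower, and in the Ets2-deficient pair they differed by 0.53, -0.22 and -0.59. Of 15 CXC and other chemokines, 11 were kept and 2 were higher, Cxcl14 (1.05 and 3.58) and the scavenger chemokine Cxcl16 (1.04 and 1.47). A second bright probe set of Cxcl14 differed by 0.23.

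Chemokine and chemoattractant receptors had 15 of 18 kept, 6 lower and 1 higher (Cx3cr1), with a median of -0.52 and 0.14 in the Ets2-deficient pair. Ccr3, the receptor of eosinophils, measured 7.91 and 5.13, and 8.35 and 5.28 (-2.79 and -3.07). The decoy receptor Ackr3 measured 10.91 and 8.33, and 6.38 and 8.31 (-2.59 and 1.93). The complement C5a receptor C5ar1 differed by -1.61 and -0.67, the neutrophil receptor Cxcr2 by -1.23 and 0.95, and the formyl peptide receptor Fpr2 by -1.09 and 0.21. Thus Ccr3 was low on both tumor arrays, whereas Ackr3 was high on the Ets2-expressing remodeling array alone. In the complement list, 15 of 16 genes were kept, 4 were lower (C1s1 at -1.63, C5ar1, Serping1 at -1.59 and Cd55 at -1.32) and Vsig4 was higher.

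Genes of granulocytes were lower. Of 8 eosinophil genes, 4 were kept and 4 were lower, and the same 4 were lower in the Ets2-deficient pair. Besides Ccr3 these were the lectin Siglecf, at 10.17 and 8.35, and 9.90 and 8.25 (-1.82 and -1.66), the interleukin-5 receptor Il5ra (-1.43 and -1.45) and the lipoxygenase Alox15 (-1.30 and -1.18). Ccr3 and Il5ra lay below the median of the Ets2-expressing tumor array (5.13 and 4.96 against 6.22). They were kept through the remodeling array alone, which favors a call of lower. Over all 8 genes, 6 differences lay below 0 and 1 above. The eosinophil granule genes Epx and Prg2 were not kept, with Epx at 4.38 and 4.11 and Prg2 at 3.90 and 4.03. Rnase2a, an eosinophil-associated ribonuclease, measured 11.78 and 10.02, and 11.98 and 8.78 (-1.77 and -3.20). Summed levels of 4 eosinophil markers were 26.4 and 21.6 in the Ets2-expressing pair. Their part in the other differences was not tested.

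Mast cell and neutrophil genes were, by median, lower in the Ets2-expressing pair and not in the other. Of 12 mast cell genes, 6 were kept and 6 were lower (median -0.73, and 0.02 in the Ets2-deficient pair). Histidine decarboxylase, Hdc, measured 9.04 and 7.08, and 7.96 and 7.79 (-1.96 and -0.17). The protease Tpsb2 differed by -1.74 and 0.62, Mcpt4 by -1.35 and 1.05, and Cma1 by -1.23 and 1.13. The transcription factor Gata2 was lower in both pairs (-1.67 and -1.07), although a second bright probe set differed by -0.62. Of 13 neutrophil genes, 8 were kept, 5 were lower and 1, Lcn2, was higher (median -0.32, and 0.70 in the Ets2-deficient pair). Padi4, the deiminase of neutrophil chromatin traps, measured 7.76 and 4.68, and 6.55 and 5.56 (-3.08 and -0.99). The decoy receptor Il1r2 differed by -1.67 and 0.45, and the calprotectin subunits S100a9 by -1.31 and 0.70 and S100a8 by -1.18 and 0.94. Summed levels of 4 mast cell markers were 33.1 and 27.7 in the Ets2-expressing pair, and those of 3 neutrophil markers 33.5 and 29.8. Their part in the differences of inflammatory genes was not tested.

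Some genes that limit vessel growth and some that promote it were lower. Of 16 angiogenesis inhibitors, 13 were kept, 6 were lower and 0 higher (median -0.61, and 0.31 in the Ets2-deficient pair). Thbs1, the gene of thrombospondin-1, a matrix protein that blocks vessel growth, was the lowest gene of those kept. It measured 9.09 in remodeling and 5.25 in tumor macrophages, and 7.34 and 6.32 on the Ets2-deficient arrays (-3.84 and -1.02, or 14.3-fold and 2.03-fold lower). A second probe set of Thbs1 was dim, and a probe set naming both Thbs1 and Pald1 measured 11.30 and 8.10. The protease inhibitor Timp3 measured 9.98 and 7.77, and 6.81 and 7.60 (-2.21 and 0.79), and the proteoglycan Dcn 11.85 and 9.79, and 9.24 and 9.50 (-2.06 and 0.26). Thbs2 differed by -1.88 and 1.33 and Col18a1, the source of endostatin, by -1.76 and 0.91. Thbs1 was the highest on the Ets2-expressing remodeling array and lower on both tumor arrays, while the other inhibitors named stood high on that array alone.

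Of 19 angiogenesis promoters, 11 were kept, 7 were lower and 0 higher (median -0.39, and 0.08 in the Ets2-deficient pair). Vegfa, the main endothelial growth factor, measured 9.0 and 7.24, and 8.37 and 7.49 on the Ets2-deficient arrays (-1.75 and -0.88). Its relative Vegfd measured 8.47 and 5.78, and 5.86 and 6.13 (-2.69 and 0.27). The EGF receptor ligand Hbegf measured 10.47 and 8.54, and 8.70 and 8.30 (-1.93 and -0.40). Vegfa was lower on both tumor arrays than on both remodeling arrays, and Vegfd and Hbegf were high on the Ets2-expressing remodeling array alone. The endothelial receptor Tek (-1.48 and 1.17) and the vasodilator peptide Adm (-1.38 and 1.38) were also lower. Fibroblast markers were also lower in sum in the Ets2-expressing pair (66.7 and 59.4). In the Ets2-deficient pair they were higher in sum (55.3 and 58.8). The part of fibroblast RNA in these differences was not tested. Of 4 endothelial markers, 1 was bright on each array of the Ets2-expressing pair (summed levels of 22.9 and 21.8).

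Fibroblast, collagen and basement membrane genes were, by median, lower in the Ets2-expressing pair and higher in the Ets2-deficient pair. Of 28 fibroblast and collagen genes, 25 were kept, 12 were lower and 0 higher (median -0.76). In the Ets2-deficient pair the median was 1.27, and 13 were called higher. Their median levels were 9.27 and 8.49 on the Ets2-expressing remodeling and tumor arrays and 7.19 and 8.69 on the Ets2-deficient ones. Both tumor arrays thus lay between the 2 remodeling arrays, which stood farthest apart. The procollagen enhancer Pcolce2 measured 8.22 and 5.83, and 3.73 and 5.49 (-2.39 and 1.75). Dermatopontin, Dpt, differed by -1.84 and 0.12, the microfibril gene Mfap5 by -1.75 and 1.91, and lumican, Lum, by -1.63 and 0.07. Col1a1 measured 12.22 and 11.60 on its main probe set, and a second bright one differed by -1.74.

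Basement membrane genes had 10 of 14 kept, 5 lower and 0 higher (median -0.57, and 0.64 in the Ets2-deficient pair). The laminin genes Lamc1 (-2.35 and -0.04), Lamb1 (-1.94 and 1.14), Lama2 (-1.66 and 0.59) and Lama4 (-1.44 and 1.76) and nidogen, Nid1 (-1.31 and 0.19), made up the 5. A second bright probe set of Lamc1 differed by -0.89. Among 17 proteoglycans and matricellular proteins, 13 were kept, with 5 lower and 2 higher (median -0.07, and 1.25 in the Ets2-deficient pair). Over the 17, kept or not, 8 differences lay above 0 and 9 below. Versican, Vcan, measured 8.64 and 5.86, and 6.06 and 7.30 (-2.78 and 1.25). The collagen-binding Fmod measured 5.58 and 7.88, and 5.01 and 7.48 (2.29 and 2.47), and connective tissue growth factor, Ccn2, 7.56 and 9.40, and 4.45 and 9.38 (1.84 and 4.94). Fmod and Ccn2 were high on both tumor arrays. Their direction was opposite to that of the other fibroblast, basement membrane and proteoglycan genes named here in the Ets2-expressing pair. In the Ets2-deficient pair those genes also lay above 0 on their main probe sets, except Lamc1 (-0.04). Some differences there were small, such as 0.07 for Lum and 0.12 for Dpt.

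Matrix metalloproteinases and their inhibitors had 12 of 15 kept, 2 higher (Mmp12, and Mmp13 at 1.07) and 3 lower (Timp3, Mmp23 at -1.44 and Mmp19 at -1.23). In the plasminogen system 7 of 10 were kept and 3 were lower. Serpinb2, the macrophage inhibitor of plasminogen activators, measured 7.49 and 3.97, and 6.51 and 4.21 (-3.53 and -2.30). It was bright on both remodeling arrays and near background on both tumor arrays. The serine protease Htra1 (-1.29 and 1.09) and the plasminogen activator Plat (-1.21 and 1.66) were lower in the Ets2-expressing pair. Of 12 cathepsins kept, Ctse was lower with either label (-1.08 and -1.04).

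Growth factor genes of the IGF, EGF and TGF-beta families had 18 of 26 kept, 6 lower and 2 higher (median -0.31). Gdf10 measured 7.04 and 4.29, and 4.27 and 4.55 (-2.75 and 0.28). The EGF receptor, Egfr, measured 11.40 and 9.34, and 10.78 and 9.20 (-2.07 and -1.58), but a second bright probe set differed by only -0.27. Tgfb2 measured 9.31 and 7.68, and 7.45 and 9.30 (-1.63 and 1.84), with -0.46 on a second bright set. Tgfb3 (1.62 and 3.71) and the receptor Tgfbr1 (1.56 and 0.65) were higher. The heparin-binding growth factor Ptn was lower with either label, at 10.67 and 8.53, and 9.09 and 7.54 (-2.14 and -1.55).

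Genes lower with either Ets2 label were few. The 10 lowest by the smaller of both differences were Serpinb2, Ccr3, Olr1, Ptn, Egfr, Sema7a, Siglecf, Rnase2a, F5 and Gadd45a. Olr1, the receptor for oxidized LDL, measured 8.11 and 5.94, and 8.02 and 5.79 (-2.17 and -2.23). The membrane semaphorin Sema7a measured 8.75 and 6.70, and 8.29 and 6.62 (-2.05 and -1.67). Coagulation factor F5 measured 11.18 and 9.44, and 11.14 and 9.35 (-1.74 and -1.78), and the stress gene Gadd45a 9.66 and 7.98, and 9.59 and 7.95 (-1.68 and -1.64). In these 4 genes the arrays of each setting lay close together and the settings did not overlap. The genes were chosen by both differences, so that separation is in part fixed by the choice. The ETS factor Elf4 measured 8.0 and 5.76, and 7.89 and 6.85 (-2.24 and -1.04). In the monocyte list, 12 of 12 were kept, with 3 lower and 0 higher (median 0.12). Of its differences, 7 lay above 0 and 5 below. The lower genes were Plac8 (-1.10 and -1.07), Gsr (-1.43 and -0.88) and Vcan (-2.78 and 1.25). Only Plac8 among them was also called lower in the Ets2-deficient pair, where Vcan was called higher. Ccr2 differed by 0.88 and 0.09 on its main probe set. Its other bright sets differed by 1.775 and 1.369 in the Ets2-expressing pair.

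Genes past 2-fold in opposite directions were Ptx3, Vcan, Ackr3, Pcolce2 and Igdcc4 among those lowest in the Ets2-expressing pair. Igdcc4 measured 8.34 and 5.81, and 4.88 and 5.97 (-2.53 and 1.09). Igdcc4 and Pcolce2 were too dim to be kept in the Ets2-deficient pair. Sec16b was the 1 gene the other way, at 6.09 and 7.42, and 7.69 and 6.61 (1.33 and -1.08). Of the remaining genes among the 15 lowest, Adam12, a membrane metalloprotease, measured 7.99 and 5.05, and 6.36 and 6.27 (-2.94 and -0.09). Krtdap differed by -2.67 and 0.04.

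**Figure D3:**
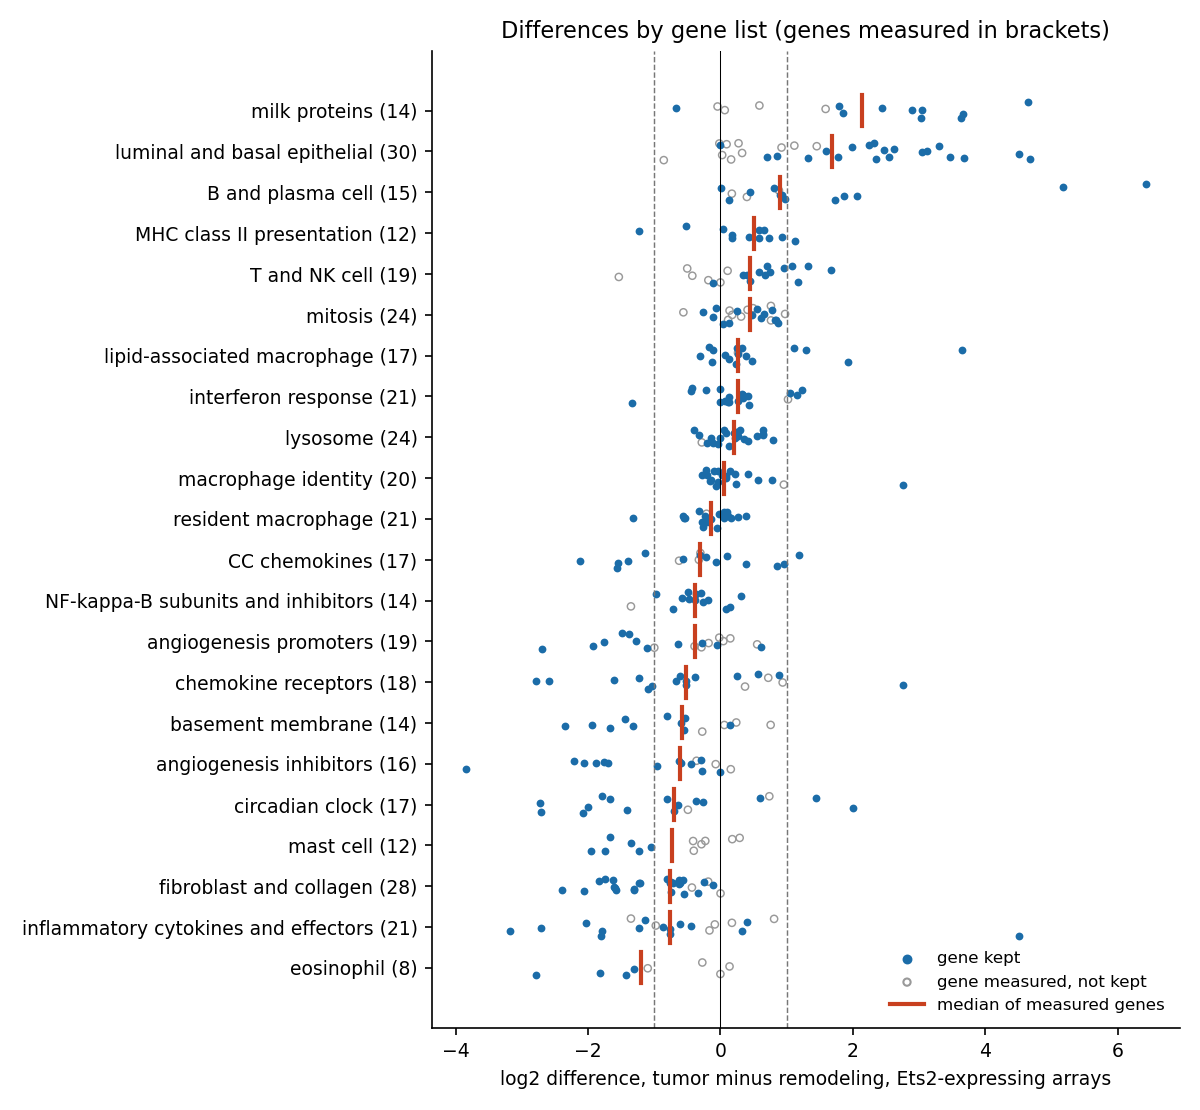
Log2 difference (tumor minus remodeling, Ets2-expressing pair) of each measured gene of 22 lists; filled points are genes kept, open points genes measured but not kept, red bars the median of the measured genes, and dashed lines 2-fold. Medians run from 2.14 for milk proteins to -1.20 for eosinophil genes, and those of macrophage identity (0.05) and lysosomal genes (0.21) lie near 0.

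The circadian clock is a feedback loop in which CLOCK, NPAS2 and ARNTL (BMAL1) activate genes through a DNA element called the E-box, among them the PER and CRY repressors, the nuclear receptors NR1D1 and NR1D2, and the output factors DBP and TEF. NR1D1 and NR1D2 repress Arntl and Npas2 through ROR elements, and DBP and TEF act on D-boxes, so the repressor side and the activator side peak at opposite times of day. Genes of both sides were called in the Ets2-expressing pair. Promoters of 4 clock genes that differed are shown for the position of these elements, from RefSeq on the build GRCm38.p6, from 250 bases before to 50 after the start, with matched motifs in capitals and the remaining bases in lower case. They are Tef at chr15:81802423-81802722 (plus strand, E-box in capitals), Per3 at chr4:151044616-151044915 (minus strand, D-boxes in capitals), Arntl at chr7:113207261-113207560 (plus strand, ROR element in capitals; a second Arntl window, which starts upstream of it, held no match) and Nr1d1 at chr11:98775328-98775627 (minus strand, no match).
Tef: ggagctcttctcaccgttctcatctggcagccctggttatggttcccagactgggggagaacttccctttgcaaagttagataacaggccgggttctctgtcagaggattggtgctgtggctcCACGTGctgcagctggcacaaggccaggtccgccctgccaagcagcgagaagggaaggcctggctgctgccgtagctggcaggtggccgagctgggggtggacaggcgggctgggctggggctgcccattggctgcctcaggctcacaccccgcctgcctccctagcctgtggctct
Per3: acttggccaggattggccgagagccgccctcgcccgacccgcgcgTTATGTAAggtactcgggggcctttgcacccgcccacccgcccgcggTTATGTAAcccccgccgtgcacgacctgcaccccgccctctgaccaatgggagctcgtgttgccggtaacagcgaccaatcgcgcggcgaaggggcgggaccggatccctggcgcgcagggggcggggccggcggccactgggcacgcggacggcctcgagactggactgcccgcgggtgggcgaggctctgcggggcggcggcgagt
Arntl: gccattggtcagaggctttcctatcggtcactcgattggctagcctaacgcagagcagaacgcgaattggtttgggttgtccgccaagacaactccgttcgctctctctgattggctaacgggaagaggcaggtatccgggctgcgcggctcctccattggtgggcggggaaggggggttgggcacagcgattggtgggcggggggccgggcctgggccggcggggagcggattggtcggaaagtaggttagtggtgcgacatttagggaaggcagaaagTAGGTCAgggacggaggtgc
Nr1d1: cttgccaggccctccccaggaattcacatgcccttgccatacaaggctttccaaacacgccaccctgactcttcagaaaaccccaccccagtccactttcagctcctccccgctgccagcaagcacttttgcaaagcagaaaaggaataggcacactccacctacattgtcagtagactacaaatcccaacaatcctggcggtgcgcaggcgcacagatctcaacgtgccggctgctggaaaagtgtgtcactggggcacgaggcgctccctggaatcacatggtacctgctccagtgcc

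Of 17 clock genes measured, 15 had a promoter in the table, with 20 windows of 300 bases in all. Searched on both strands, the E-box CACGTG was in 5 of 20 windows (Bhlhe41, Cry1, Per1 and both of Tef) and in 7.15% of 32851 promoters. The D-box TTANGTAA was in 1 window, that of Per3, which held 2 copies, and in 2.32% of all promoters. The ROR element TAGGTCA was in 2 windows (1 of Arntl and that of Nfil3) and in 2.61% of all. No window of a clock gene held more than 1 kind of motif. A match describes the letters of the window and not a binding site.

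Of the 17 clock genes, 15 were kept, 7 were lower and 2 higher in tumor macrophages, and the median was -0.71 (-0.30 in the Ets2-deficient pair, with 0 called). Per2 measured 9.09 and 6.37, and 5.77 and 5.23 on the Ets2-deficient arrays (-2.72 and -0.54). The output factor Dbp measured 11.43 and 8.73, and 8.77 and 8.35 (-2.70 and -0.42), and a second bright probe set differed by -1.99. For both genes the Ets2-expressing remodeling array was high and the other three lay well below it. Nr1d1 measured 8.20 and 6.13, and 5.70 and 6.05 (-2.07 and 0.36), and Nr1d2 11.35 and 9.35, and 9.49 and 9.09 (-2.0 and -0.40). Per3, whose window holds the D-boxes, measured 8.23 and 6.44, and 6.83 and 5.88 (-1.79 and -0.94). Cry2 measured 9.03 and 7.37, and 7.45 and 7.10 (-1.67 and -0.35), and Tef 9.86 and 8.44, and 8.18 and 7.80 (-1.42 and -0.38).

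On the activator side, Npas2 and Arntl were higher in tumor macrophages. Npas2 measured 5.07 in remodeling and 7.07 in tumor macrophages, and 6.41 and 6.47 on the Ets2-deficient arrays (2.0 and 0.06). Arntl, for which 1 of 2 windows holds the ROR element, measured 5.76 and 7.21, and 7.96 and 7.21 (1.45 and -0.75). In both genes the Ets2-expressing remodeling array was the lowest of the 4. Clock differed by -0.71 and -0.68, Cry1 by -0.81 and -0.24 and Per1 by -0.26 and -0.30, none past 2-fold. The hour at which each sample was collected is not given in the sources used here, and its part was not tested.

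**Figure D4:**
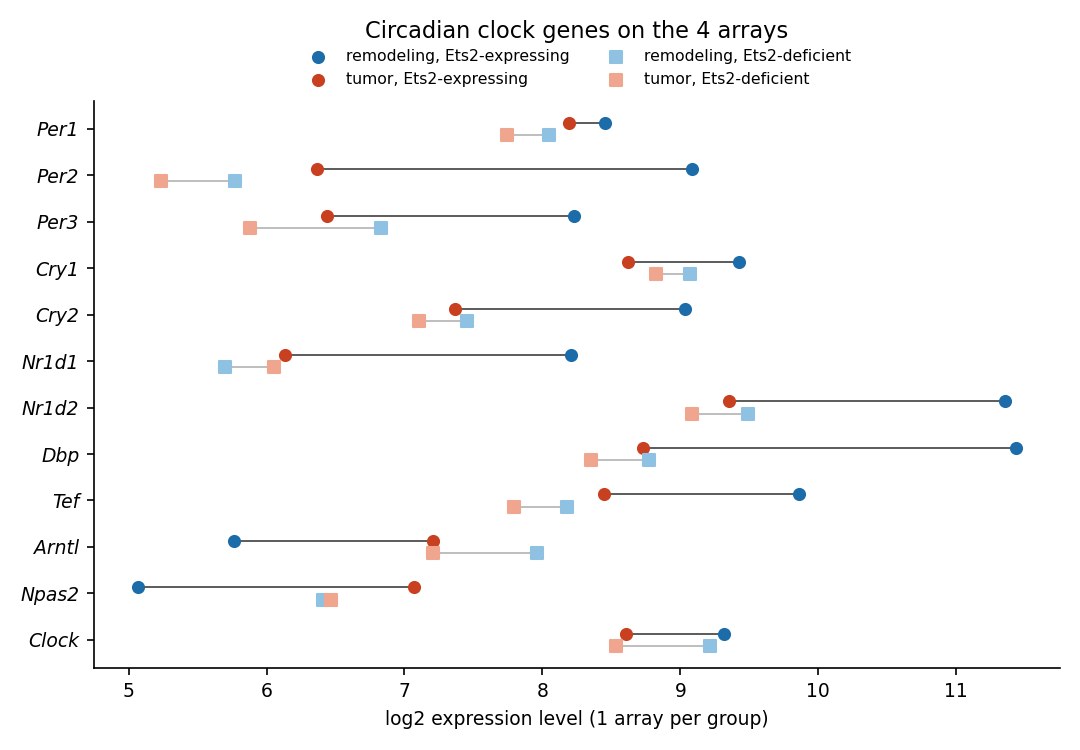
Log2 expression levels of 12 circadian clock genes on the 4 arrays; circles joined by a dark line are the Ets2-expressing pair, squares joined by a light line the Ets2-deficient pair, blue remodeling and red tumor. The Ets2-expressing remodeling array stands apart to the right for Per2 (9.09), Dbp (11.43), Nr1d1 (8.20) and Nr1d2 (11.35) and to the left for Arntl (5.76) and Npas2 (5.07).

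Stress and redox genes were lower in small numbers in the Ets2-expressing pair. Of 25 immediate early and stress genes, 23 were kept and 4 were lower: the nuclear receptor Nr4a2 (-2.06 and -1.16), Fosl1 (-1.81 and 0.12), Fosl2 (-1.12 and 0.00) and the heat shock protein Hspa1a (-1.07 and -0.29). Among 21 antioxidant and glutathione genes, 19 were kept and 5 were lower (median -0.21). These were glutathione reductase Gsr (-1.43 and -0.88), the cystine transporter Slc7a11 (-1.34 and 0.81), Srxn1 (-1.32 and 0.05), Gstm2 (-1.24 and -0.48) and Txnrd1 (-1.01 and -0.20). In the Ets2-deficient pair the median of that list was 0.21, with 3 called higher and 0 lower. Heat shock and unfolded protein response genes had 20 of 24 kept, with Hsph1 (-1.15) and Dnaja1 (-1.06) lower. The prostacyclin synthase Ptgis measured 8.13 and 5.72, and 5.12 and 5.52 (-2.41 and 0.39), 1 of 3 lower among 14 eicosanoid genes kept.

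Proliferation and housekeeping genes had few or no calls. Of 24 mitosis genes, 14 were kept and 0 were called, with 20 of 24 differences above 0 (median 0.44, and 0.10 in the Ets2-deficient pair). The proliferation marker Mki67 measured 7.56 and 8.21. Of 24 S-phase genes kept, the replication licensing factor Cdc6 (-1.23) was lower. The respiratory chain (34 of 34 kept, median 0.17), the proteasome (27 of 27, 0.15) and cytosolic ribosomal proteins (25 of 26, 0.07) had 0 called in either direction.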

How the data were processed

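Expression was measured on 4 Affymetrix mouse arrays of 22690 probe sets. The deposited values are log2 expression levels, per the file's value table, and GCOS and RMA stand in the submitters' processing notes. Their versions and what each did are not given in the sources used here. They were used as deposited. For each gene, among probe sets that the platform annotation ties to 1 gene, the brightest on average over the 4 arrays was used. A gene was kept where its brighter array of the pair reached that array's median, and called at 2-fold. A gene below the median on 1 array of the pair was kept through the other alone, which favors a call. With 1 array a group, differences carry no test. The SD between bright probe sets of a gene served as technical error, and the number of arrays limits the precision. A probe set below the median on both arrays is called dim, and a level under an array's 25th percentile near background.

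The members and the 55 gene lists were chosen with earlier results of these data known, and 2 further lists were written after the values were seen. Symbols were matched exactly. Genes named are the 15 highest and 15 lowest, up to 5 per list and direction past 2-fold, the 10 per direction largest in both Ets2 labels, the 5 per direction past 2-fold in opposite ways, Ets2, and cell type markers. The other genes named (uncalled members of lists, and genes at the limits) were chosen after their values were seen. For genes named by their differences, the order of their arrays is in part fixed by that choice. Alternatives changed the scaling, brightness limit, probe set choice and fold limit. Python 3.11.15 with pandas 2.3.3 and numpy 2.4.6 was used, and the counting was tested on simulated data.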

Additional observations from a re-analysis of the deposited data

Results flagged for a closer look

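Differences between Ets2 labels stood out where the Ets2-expressing and Ets2-deficient pairs lay on opposite sides of 0. The difference between the pairs was not tested, as each pair has 1 array a side. Among gene lists, the medians were -0.76 and 1.27 for fibroblast and collagen genes, -0.61 and 0.31 for angiogenesis inhibitors, and -0.57 and 0.64 for basement membrane genes (Ets2-expressing, then Ets2-deficient). They were -0.27 and 0.86 for matrix metalloproteinases and inhibitors, -0.31 and 0.27 for IGF, EGF and TGF-beta growth factors, and -0.32 and 0.70 for neutrophil genes. Some genes sit in more than 1 of these lists, such as Dcn and Timp3.

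Among single genes, Ptx3 differed by -3.18 and 2.22, Vcan by -2.78 and 1.25, Ackr3 by -2.59 and 1.93, Igdcc4 by -2.53 and 1.09, and Pcolce2 by -2.39 and 1.75. Sec16b differed by 1.33 and -1.08.

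Probe sets not tied to 1 gene were left out of every count above. Of 2246 such probe sets, 971 were bright, of which 39 were higher past 2-fold and 62 lower, with 15 and 13 past 2-fold the same way in the Ets2-deficient pair. They included 3 probe sets naming the antibody kappa constant region Igkc with other kappa segments, which differed by 2.09, 2.61 and 2.58.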

How the results depend on the processing

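The counts of 448 higher and 377 lower genes depended most on the brightness and fold limits. They became 110 and 169 with the brighter array at or above its 75th percentile, where 39.4% of called genes were higher in place of 54.3%. They became 196 and 245 with both arrays at or above their medians, 1223 and 942 at 1.5-fold, and 172 and 145 at 3-fold. Scaling moved them less: 405 and 414 after median centring, 443 and 386 after quantile normalization, and 375 and 445 after centring on hybridization controls. Of 186 named genes past 2-fold, 79 stayed past it under every alternative run on genes, and 0 reversed. Calls lost numbered 90 with the 75th percentile, 68 with both arrays bright and at most 6 under the other alternatives. Of 57 list medians, those of fibroblast and collagen genes (-1.12) and Schwann cell genes (0.17) moved by over the median probe set SD when a gene's bright probe sets were averaged. Small medians changed sign under centring on hybridization controls for macrophage identity, cathepsins, ribosomal proteins, CXC and other chemokines, arginine and polyamine, eicosanoid and scavenger receptor genes. When bright probe sets were averaged, those of arginine and polyamine, eicosanoid, scavenger receptor, monocyte, p53 and Schwann cell genes did. Median centring also turned those of CXC and other chemokines, eicosanoid and scavenger receptor genes, and quantile normalization those of eicosanoid and scavenger receptor genes. No replicate could be left out, and no paired analysis was possible because each group has 1 array. Probes near background limit the lower end of any difference.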

Other observations

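A list of 15 genes induced by glucocorticoids, written after the values were seen, had 15 kept, 3 lower and 0 higher (median -0.23). The immunophilin Fkbp5, a target of the glucocorticoid receptor, measured 10.77 in remodeling and 8.22 in tumor macrophages, and 8.87 and 7.59 on the Ets2-deficient arrays (-2.56 and -1.28). Its second probe set was dim. The transcription factor Zbtb16 measured 10.00 and 8.65, and 9.45 and 7.75 (-1.34 and -1.70). Klf9, which is also clock-regulated, measured 11.84 and 10.82, and 10.67 and 10.53 (-1.02 and -0.14).

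A second such list, of 16 acute-phase and mucosal defense genes, had 12 kept, 7 higher and 1 lower (median 0.48, and 1.03 in the Ets2-deficient pair). Beside the serum amyloid genes, Lcn2, Chil1 and Ltf, it held the plasma glycoprotein Orm1 (4.08 to 6.71, a difference of 2.63) and Pigr, the receptor that carries polymeric antibodies across epithelium (4.96 to 6.46, a difference of 1.5). Orm1 and Pigr differed by 1.25 and 2.77 in the Ets2-deficient pair. The protease inhibitor Slpi was lower, at 9.03 and 7.44 (-1.59). Saa3, the serum amyloid of macrophages, measured 7.03 and 7.43, and 6.47 and 9.80 on the Ets2-deficient arrays (0.40 and 3.34). These lists were chosen for genes that stood out, so their counts support nothing.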
